A study of Mus musculus with 12 samples.

Results

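The genes described here are 10 genes of interleukin 6 (IL-6) family signalling, chosen by their gene names: the ligands Il6, Lif, Clcf1 and Cntf, the receptor genes Il6st, Il6ra, Lifr and Osmr, the transcription factor Stat3 and its feedback inhibitor Socs3. All 10 were found among the 44345 gene names of the count table. They were measured by RNA sequencing of whole sciatic dorsal root ganglia (DRG, levels L4-L6) of C57BL/6 mice aged 5 to 8 weeks. Mice were kept for 10 days in standard housing (SH) or in an enriched environment (EE) and then underwent sham surgery, in which the nerve was only exposed, or sciatic nerve axotomy (SNA), a complete transection. The ganglia were taken 24 h later. Each housing has a sham and an SNA group (SH Sham and SH SNA, EE Sham and EE + SNA), which makes 4 groups of 3 samples, every sample being a pool of 2 mice. Neither a transgene nor a drug is named for these samples.

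EE Sham is described in the paper as an earlier dataset. If it was sequenced apart from the rest, which the labels do not say, a difference between rounds cannot be told apart from one between EE Sham and another group. Between 11343579 and 22871460 reads were counted on genes per sample. The neuronal marker Tubb3 stood between 2278 and 2639 CPM (a gene's share of the counted reads, after edgeR's TMM scaling of library sizes) in the 12 samples. All 6 listed injury response genes (Atf3, Sprr1a, Gap43, Sox11, Jun and Gal) rose after SNA in both housings, as a check of the surgery labels. Markers of other tissues varied between single samples: summed over 5 genes, skeletal muscle markers reached 749.9 CPM in SH SNA replicate 2 against 2.46 to 135 CPM in the other 11 samples, and neutrophil markers reached 725.7 CPM in EE + SNA replicate 3 against 68.9 to 307 CPM elsewhere. The sympathetic marker Dbh stood at 5.04 CPM in EE Sham replicate 3 and at 0.507 CPM or less in the other samples.

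Cytokines of the IL-6 family signal through receptors that share the subunit gp130, the product of Il6st. IL-6 first binds the receptor encoded by Il6ra, LIF, CNTF and CLCF1 use gp130 paired with the product of Lifr, and oncostatin M uses gp130 paired with the product of Osmr. The bound receptor activates Janus kinases, which phosphorylate STAT3, and phosphorylated STAT3 enters the nucleus and drives transcription, of Socs3 among other genes. SOCS3 in turn binds gp130 and the kinases and ends the signal. In peripheral nerve this pathway is known as part of the cell body response to axotomy. Counts of RNA do not report phosphorylation, so the values here concern the transcripts of the pathway and not its activity.

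Il6 and Socs3 are the members that rose after SNA in both housings, and the sequences upstream of their RefSeq starts are shown for this reason. On GRCm38, Il6 lies at chr5:30013114-30019981 on the plus strand, Socs3 at chr11:117966079-117970047 on the minus strand and Stat3 at chr11:100885098-100939540 on the minus strand. All 10 members are annotated as protein coding. Below are 250 bases upstream of the RefSeq start of Il6 (chr5:30012864-30013113, plus strand, build GRCm38.p6). For Socs3, 165 bases upstream of its RefSeq start are shown (chr11:117969452-117969616, minus strand, same build). They end 86 bases before that start, where an exon of a shorter annotated transcript begins. The annotated Socs3 gene reaches further upstream, to chr11:117970047, so these 165 bases lie inside its bounds, outside its exons. Capitals mark matches to TTCNNNGAA, the STAT consensus, or to TGANTCA, the consensus of AP-1, which is formed by Jun and Fos family proteins. Both letter strings include their own reverse complements, so both strands were searched, and neither contains the other.
Il6: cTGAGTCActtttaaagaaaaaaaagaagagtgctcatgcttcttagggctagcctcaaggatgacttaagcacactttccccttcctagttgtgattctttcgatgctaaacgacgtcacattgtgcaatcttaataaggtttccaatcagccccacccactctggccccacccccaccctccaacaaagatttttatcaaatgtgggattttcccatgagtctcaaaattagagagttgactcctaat
Socs3: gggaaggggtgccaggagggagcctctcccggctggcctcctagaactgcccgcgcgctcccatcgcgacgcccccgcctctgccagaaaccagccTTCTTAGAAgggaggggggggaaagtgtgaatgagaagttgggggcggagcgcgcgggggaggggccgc
The RefSeq table held promoter windows, from 250 bases before to 50 bases after a start, for 9 of the 10 members. TTCNNNGAA was found in the window of Socs3 alone among them, 154 to 146 bases upstream of the start, and in 8.298% of all 32851 windows of that length. TGANTCA was found in the windows of Il6 (249 to 243 bases upstream), Lif, Cntf and Osmr, and in 7.808% of all windows. The search for TGANTCA was added after the values were seen. In the GENCODE annotation the coding transcript of Socs3 starts further downstream than the RefSeq start used here.

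The members spanned a wide range of levels when compared per length, as FPKM (fragments scaled by transcript length and library total, as deposited) over all 12 samples. Il6st was highest at 59.9 ± 5.2 FPKM (SD, n = 12), followed by Stat3 at 39.1 ± 2.3 and Lifr at 35.5 ± 2.7. The ranges of Il6st and Stat3 did not overlap, whereas those of Stat3 (35.0 to 42.6 FPKM) and Lifr (30.8 to 41.7 FPKM) did, with Stat3 above Lifr in 10 of 12 samples. Socs3 followed at 9.98 ± 1.87 FPKM and Osmr at 4.87 ± 0.40 FPKM, each range clear of its neighbours. Il6 (0.918 to 3.53 FPKM) and Il6ra (0.978 to 3.41 FPKM) overlapped, and their order differed between surgeries. Il6 was the higher one in 5 of 6 SNA samples and Il6ra in 5 of 6 sham samples. The remaining ligands were lowest, with Clcf1 at 0.338 ± 0.088 FPKM, Lif at 0.214 ± 0.055 FPKM and Cntf at 0.205 ± 0.091 FPKM, and the ranges of neighbours overlapped. In all 12 samples the receptor genes Il6st and Lifr and the transcription factor gene Stat3 thus stood above each of the 4 ligand genes per length.

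**Figure D1:**
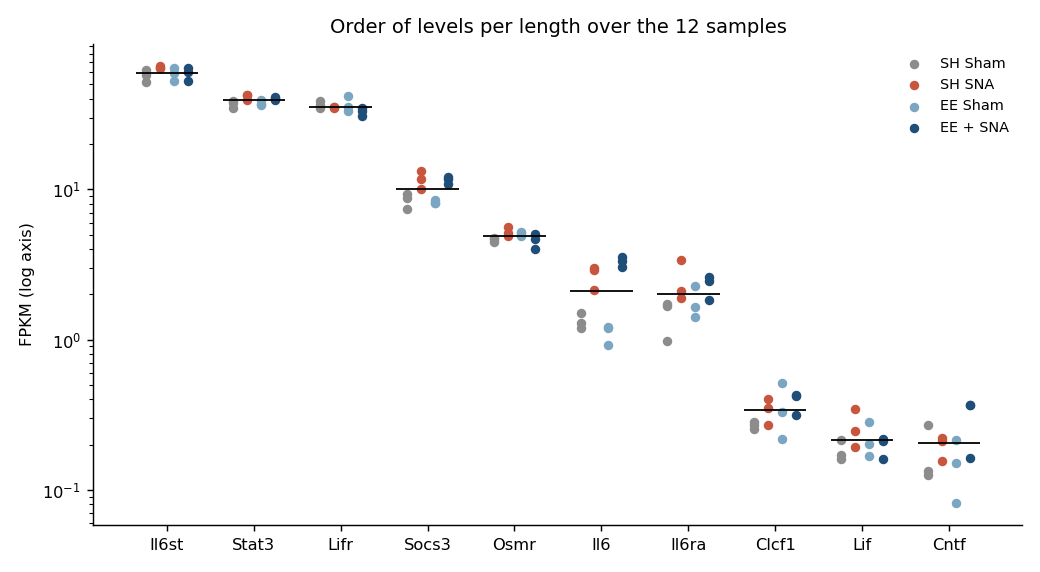
FPKM (log axis) of each member in the 12 samples, one point per sample, coloured by group, with the mean over 12 as a line. Il6st, Stat3 and Lifr lie at 30.8 FPKM or more and Clcf1, Lif and Cntf at 0.517 FPKM or less in every sample.

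In SH SNA against SH Sham, 2 of the 9 tested members rose at an adjusted P-value of 0.05 (edgeR quasi-likelihood test, Benjamini-Hochberg over 16238 genes) and none fell, against 11.2% of all genes tested that were called. At the unadjusted P-value of 0.05 that the study used, 6 of the 9 were higher, against 25.2% of all genes called. In EE + SNA against EE Sham, which shares no sample with the first comparison, 2 of the 9 rose at the adjusted threshold against 4.83% of all genes, and 2 of the 9 at the unadjusted one against 20.6%. They were Il6 and Socs3 in both. Cntf did not pass the filter on low counts and was not tested. The median log2 fold change of the 9 tested members was 0.35 after SH SNA and 0.088 after EE + SNA, beside 0.0046 and 0.0039 over all genes tested.

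**Figure D2:**
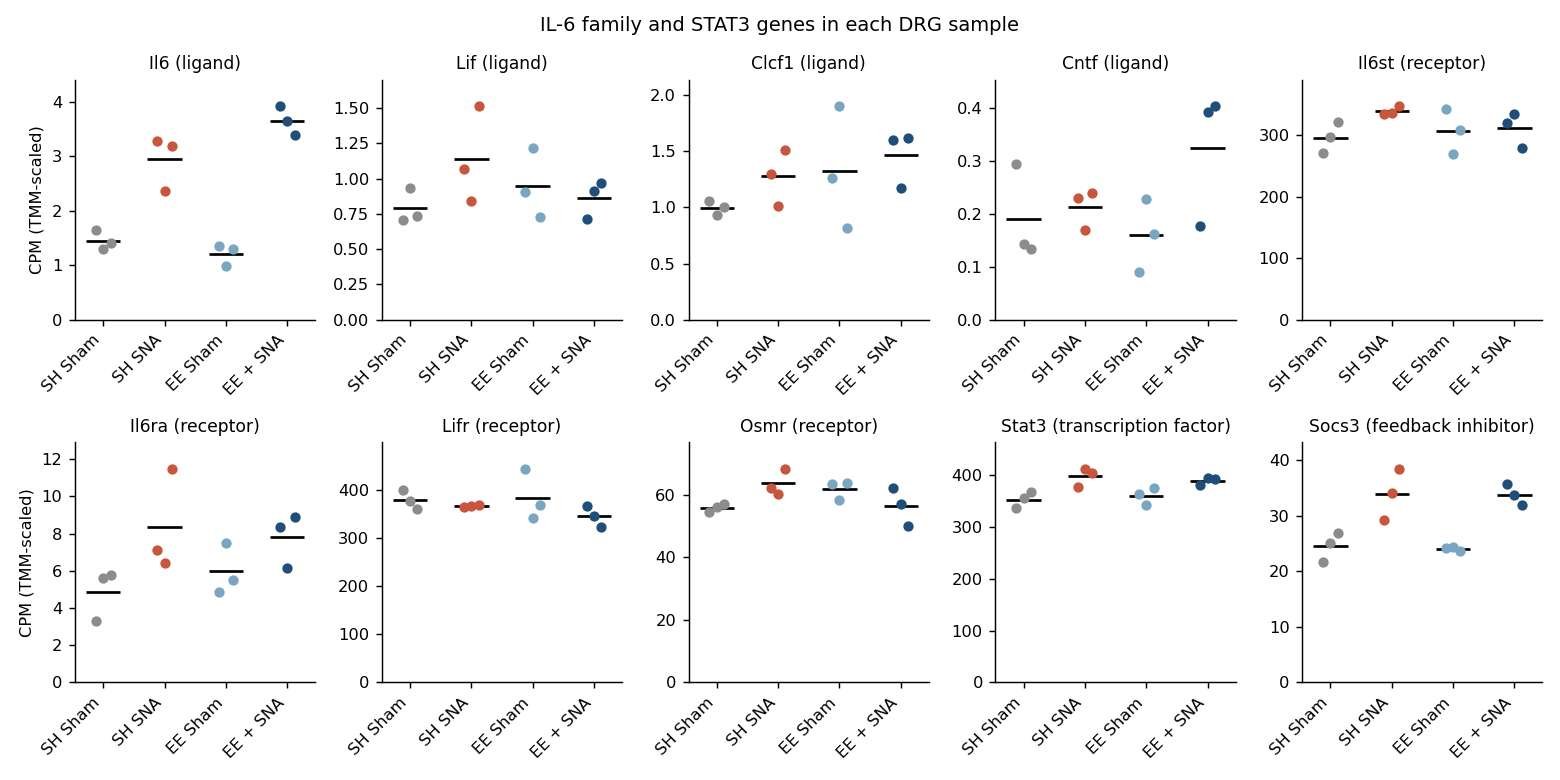
CPM of each member in every sample, with one panel per gene, one point per sample and the mean of 3 as a line; each axis starts at 0. For Il6, Socs3 and Stat3 all 6 SNA samples lie above all 6 sham samples.

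Il6, the cytokine that names the family, was the ligand that rose. It stood at 1.64, 1.29 and 1.40 CPM in SH Sham replicates 1 to 3 and at 3.29, 2.37 and 3.18 CPM in SH SNA. In EE Sham it stood at 1.35, 0.987 and 1.30 CPM, and in EE + SNA at 3.92, 3.66 and 3.38 CPM. The lowest sample after SNA was thus above the highest sham sample, 1.64 CPM, in either housing. The rise was 2.03-fold in SH (95% interval 1.44 to 2.85, log2 fold change 1.02, SE 0.23, edgeR adjusted P = 0.0113) and 3.0-fold in EE (2.13 to 4.22, log2 fold change 1.58, SE 0.23, edgeR adjusted P = 0.00226). These values rest on few reads, 13 to 28 per sham sample and 28 to 84 per SNA sample. Without SH SNA replicate 1 the log2 fold change in SH was 0.93 and missed the threshold at an adjusted P of 0.0551 (edgeR), the highest of 15 alternatives that started at 0.00174.

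Socs3, the feedback inhibitor, rose by nearly the same amount in both housings. It stood at 21.65, 25.0 and 26.9 CPM in SH Sham and at 29.2, 34.1 and 38.4 CPM in SH SNA. In EE Sham the 3 samples lay close together at 24.1, 24.4 and 23.6 CPM, and in EE + SNA they stood at 35.6, 33.7 and 32.0 CPM. No SNA sample fell into the range of the sham samples. The rise was 1.39-fold in SH (95% interval 1.17 to 1.64, log2 fold change 0.47, SE 0.11, edgeR adjusted P = 0.016) and 1.40-fold in EE (1.24 to 1.57, log2 fold change 0.48, SE 0.079, edgeR adjusted P = 0.00453). In SH the call was lost without SH Sham replicate 1 (log2 fold change 0.38, edgeR adjusted P = 0.0737) or without SH SNA replicate 3 (0.37, edgeR adjusted P = 0.0681), with a range of 9.44e-05 to 0.0737 over 15 alternatives. In EE it held whichever sample was left out.

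The other ligands gave no call. Lif, a cytokine of injured nerve, stood between 0.704 and 0.932 CPM in SH Sham, between 0.845 and 1.51 CPM in SH SNA, between 0.731 and 1.21 CPM in EE Sham and between 0.712 and 0.967 CPM in EE + SNA, with 8 to 21 reads per sample. The log2 fold change of Lif was 0.54 in SH (95% interval −0.18 to 1.26) and −0.13 in EE (−0.86 to 0.60). Clcf1, which encodes cardiotrophin-like cytokine, stood between 0.812 and 1.90 CPM over all samples (10 to 27 reads), with log2 fold changes of 0.35 (−0.26 to 0.97) and 0.088 (−0.65 to 0.83). With so few reads these intervals are wide, and changes of a size inside them are not excluded. Cntf, which myelinating Schwann cells of the nerve are known to make, had 1 to 9 reads per sample, between 0.0902 and 0.403 CPM. In the annotation 78.9% of its exon bases are shared with exons of Zfp91 on the same strand, and reads in shared stretches may have been left out as ambiguous. For Clcf1 the share was 8.17%, with exons of AC109138.7 on the same strand.

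Stat3 itself was high in every sample and differed little. It stood at 335, 355 and 367 CPM in SH Sham, 376, 411 and 404 CPM in SH SNA, 364, 342 and 375 CPM in EE Sham, and 381, 395 and 392 CPM in EE + SNA. All 6 SNA samples were above all 6 sham samples, although the highest sham sample and the lowest SNA sample differed by little. The change was 1.13-fold after SH SNA (95% interval 1.03 to 1.23, edgeR unadjusted P = 0.011, adjusted P = 0.0769) and 1.08-fold after EE + SNA (0.981 to 1.18, edgeR adjusted P = 0.363). Neither passed the adjusted threshold. Stat3 and its neighbour Stat5a share 72 exon bases on opposite strands, 0.756% of the exon bases of Stat3.

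Of the receptor genes, none passed the adjusted threshold after SNA in either housing, at an edgeR unadjusted P under 0.05 for 3 of the 4 in SH and for 0 in EE. DESeq2 and the fit without a filter on low counts called 2 of the 4 in SH, Il6ra and Il6st, and DESeq2 called 0 in EE. Il6ra, the receptor that binds IL-6, had the lowest level of the 4 and the largest change. It stood at 3.29, 5.60 and 5.75 CPM in SH Sham against 7.11, 6.42 and 11.5 CPM in SH SNA. In EE Sham it stood at 4.87, 7.51 and 5.52 CPM against 8.37, 6.14 and 8.86 CPM in EE + SNA. The groups did not overlap in SH and overlapped in EE, with log2 fold changes of 0.79 (SE 0.24, edgeR adjusted P = 0.0578) and 0.34 (SE 0.20, edgeR adjusted P = 0.36). Without SH SNA replicate 3, the highest sample, the value in SH was 0.48, and without SH SNA replicate 2 it was 0.94 and passed the threshold (edgeR adjusted P = 0.0269). The Il6ra value in SH was also called by the likelihood ratio test of edgeR (adjusted P = 0.0334) and with at least 10 counts required in every sample (edgeR adjusted P = 0.0428). In the annotation 2.8% of its exon bases are shared with the antisense gene Gm42809, and strand use in counting was not stated.

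Il6st, which encodes gp130, stood between 271 and 321 CPM in SH Sham and between 335 and 347 CPM in SH SNA, a log2 fold change of 0.20 (SE 0.064, edgeR adjusted P = 0.0688). Without SH Sham replicate 3 the value was 0.26 and passed the threshold (edgeR adjusted P = 0.0319). Without SH Sham replicate 1 it fell to 0.13 (edgeR adjusted P = 0.227). In EE the groups overlapped, at 270 to 343 CPM after sham surgery and 279 to 335 CPM after SNA, with a log2 fold change of 0.015 (95% interval −0.19 to 0.22). Lifr, the LIF receptor, had the opposite sign in both housings without a call, at −0.046 (−0.17 to 0.075) in SH and −0.16 (−0.35 to 0.038) in EE. Osmr, the oncostatin M receptor, stood at 54.5, 56.0 and 57.0 CPM in SH Sham and 62.2, 60.3 and 68.1 CPM in SH SNA, which did not overlap. In EE it stood at 63.4, 58.4 and 63.5 CPM after sham surgery and 62.1, 57.0 and 49.8 CPM after SNA, which overlapped. Its log2 fold changes were 0.19 (SE 0.063, edgeR adjusted P = 0.0767) in SH and −0.14 (SE 0.084, edgeR adjusted P = 0.384) in EE.

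Groups did not overlap for 6 of the 9 tested members in SH (Il6, Il6st, Il6ra, Osmr, Stat3 and Socs3), against 29.4% of all genes tested, and for 3 of the 9 in EE (Il6, Stat3 and Socs3), against 25.8% of all genes. Each of these members was higher after SNA.

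**Figure D3:**
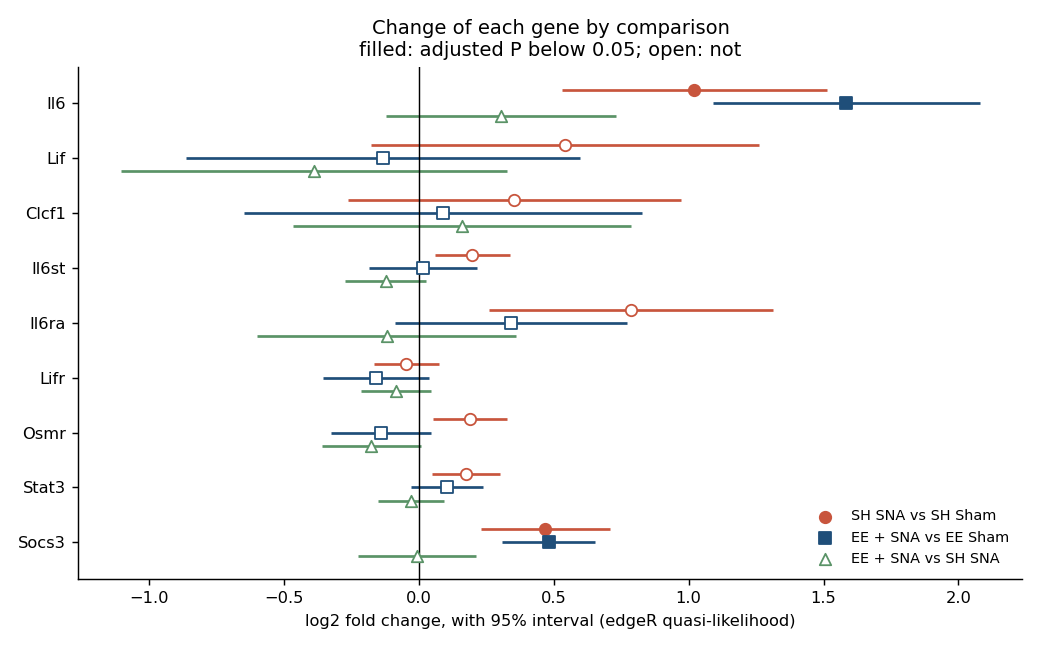
Log2 fold change of the 9 tested members with 95% intervals, for SNA against sham in each housing and for EE + SNA against SH SNA; filled symbols passed the adjusted threshold. Il6 and Socs3 are the filled points in both SNA comparisons, and all intervals of EE + SNA against SH SNA include 0.

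Whether EE changed these genes before injury is asked by EE Sham against SH Sham. By edgeR, 0 of the 9 tested members passed the adjusted threshold, against 0.00616% of all genes tested (1 gene), and 0 of the 9 the unadjusted one, against 2.97% of all genes. DESeq2 called 0 as well. With the replicate numbers as pairs, edgeR called 29 genes in place of 1, still 0 of the 9 members, and 1 of the 9 at the unadjusted threshold, Osmr. Its edgeR unadjusted P was then 0.0458 and its adjusted P 0.937. Osmr was also the closest without pairs. Its log2 fold change there was 0.14 (95% interval −0.0021 to 0.29, edgeR unadjusted P = 0.0529, adjusted P = 1.0). For Stat3 the value was 0.030 (−0.11 to 0.17), for Socs3 −0.028 (−0.22 to 0.17) and for Il6 −0.27 (−0.86 to 0.33). On the linear scale the intervals run from 0.926-fold to 1.13-fold for Stat3 and from 0.55-fold to 1.25-fold for Il6.

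Whether EE before injury added to the response is asked by EE + SNA against SH SNA. By edgeR 0 of the 9 members passed the adjusted threshold, against 0% of all genes, and 0 of the 9 the unadjusted one, against 4.1% of all genes. DESeq2 called 0 as well. Il6 stood at 3.38 to 3.92 CPM in EE + SNA and at 2.37 to 3.29 CPM in SH SNA. This was a 1.23-fold difference whose 95% interval, 0.919 to 1.66, includes no change. Socs3 differed by 0.996-fold (0.856 to 1.16) and Stat3 by 0.980-fold (0.900 to 1.07).

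The interaction of housing and surgery, fitted on all 12 samples, tests whether the change after SNA differed between housings. By edgeR 0 of the 9 members passed the adjusted threshold, against 0% of all genes, and 1 of the 9 the unadjusted one, against 2.61% of all genes. DESeq2 called 0 after adjustment. The one member was Osmr, with a log2 difference of −0.32 (SE 0.11, 95% interval −0.55 to −0.095, edgeR unadjusted P = 0.00831, adjusted P = 1.0). For Il6 the difference was 0.57 (−0.078 to 1.22), for Socs3 0.022 (−0.28 to 0.32) and for Stat3 −0.061 (−0.24 to 0.11). The larger rise of Il6 in EE than in SH was therefore within the error of this test.

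EE + SNA was also set against SH Sham, as in the study. This comparison shares its samples with those above and is no separate support for them. By edgeR 2 of the 9 members, Il6 and Socs3, rose at the adjusted threshold, against 12.5% of all genes, and 4 of the 9 were higher at the unadjusted one, against 27.2% of all genes. The 1.10-fold value of Stat3 (95% interval 1.01 to 1.20) had an adjusted P of 0.13 and the 1.58-fold value of Il6ra (1.15 to 2.18) an adjusted P of 0.062 (edgeR). Il6ra passed the threshold by the likelihood ratio test of edgeR (adjusted P = 0.0296) and by DESeq2 (adjusted P = 0.0421). It also passed without the filter on low counts (edgeR adjusted P = 0.00212) and without EE + SNA replicate 2 (log2 fold change 0.83, edgeR adjusted P = 0.0223). Other alternatives went the other way. Without SH Sham replicate 1 its value was 0.42 (edgeR adjusted P = 0.201), and on log2(FPKM + 1) it was 0.43 (limma adjusted P = 0.103).

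The rest of the pathway was followed by lists written from general knowledge, but with earlier results of these data known. Their counts beside the share of all genes are therefore a description and no independent support. Of 11 other ligand and receptor genes of the family, 6 were tested and 0 passed the adjusted threshold of edgeR in either SNA comparison. At the unadjusted threshold 2 of the 6 were higher after SH SNA and 1 of the 6 after EE + SNA. DESeq2 called 0 of them in both. The median log2 fold change of the 6 was 0.19 and 0.25. Il11, Osm, Il27, Ebi3 and Il31 did not pass the filter on low counts and were not tested. Among them Ebi3 reached 0.936 CPM in SH Sham. Osmr was measured here without appreciable RNA of its ligand Osm, which reached at most 0.267 CPM. Of the Janus kinases and the other STAT genes, 9 of 10 were tested and 0 passed the adjusted threshold of edgeR in either SNA comparison, with median log2 fold changes of 0.17 and 0.052. At the unadjusted threshold 4 of the 9 were higher after SH SNA, and 2 were higher and 1 lower after EE + SNA. DESeq2 called 0 of them in both. In EE + SNA against SH Sham, 2 of the 9 rose at the adjusted threshold of edgeR, beside 12.5% of all genes called. They were the kinase gene Jak2 (log2 fold change 0.25, edgeR adjusted P = 0.0243) and Stat2, known from interferon signalling (0.28, edgeR adjusted P = 0.0108). Leaving out 1 sample gave 1 to 2, with Stat2 alone where 1 was called. Stat2 was also the only one called with the replicate block or on log2 FPKM plus 1 or 0.1. Jak2 and Stat2 had values of 0.18 and 0.17 in SH and of 0.19 and 0.14 in EE, none called.

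Of 15 negative regulators other than Socs3, all tested, 3 rose after SH SNA and none fell, beside 11.2% of all genes called. At the unadjusted threshold 4 were higher and 1, Socs5, was lower (log2 fold change −0.16, edgeR unadjusted P = 0.0103). The 3 that rose were Socs2 (log2 fold change 0.34, SE 0.064, edgeR adjusted P = 0.00497), Cish (0.47, SE 0.12, edgeR adjusted P = 0.0252), both relatives of Socs3 known for damping cytokine signals that run through STAT5, and the tyrosine phosphatase gene Ptpn1 (0.33, SE 0.067, edgeR adjusted P = 0.00802). After EE + SNA against EE Sham, 0 of the 15 passed the adjusted threshold of edgeR and 4 were higher at the unadjusted one. DESeq2 called 0 as well. There the same 3 genes had log2 fold changes of 0.24, 0.31 and 0.14. The median over the list was 0.066 in SH and −0.020 in EE. The interaction of housing and surgery was called for none of the 15, with an edgeR adjusted P of 1.0 for Socs2, Cish and Ptpn1, so that no difference between housings is shown for them. In EE + SNA against SH Sham 4 of the 15 rose at the adjusted threshold of edgeR, beside 12.5% of all genes called. They were Socs2 (edgeR adjusted P = 0.00109), Cish (0.00728) and the phosphatase genes Ptpn2 (0.0416) and Ptpn6 (0.0294). DESeq2 and the replicate block each called 2, Socs2 and Cish, and leaving out 1 sample gave 2 to 3.

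Of 22 genes known as STAT3 targets in other settings, all tested, 9 rose after SH SNA and 6 after EE + SNA against EE Sham, and none fell, beside 11.2% and 4.83% of all genes called. At the unadjusted threshold the order of the housings was the other way round, with 9 higher and 1 lower in SH and 13 higher and 0 lower in EE, beside 25.2% and 20.6% of all genes. Their median log2 fold change was 0.22 and 0.38, beside medians near 0 over all genes. The 4 with the largest change were Atf3, a transcription factor of injured neurons (2.12, SE 0.088, and 1.71, SE 0.089), Sprr1a, an epithelial protein gene that axotomized neurons are known to switch on (2.01, SE 0.21, and 1.81, SE 0.27), the growth regulator Myc (0.66, SE 0.093, and 0.51, SE 0.11) and the metalloproteinase inhibitor Timp1 (0.65, SE 0.11, and 0.46, SE 0.12). All 4 passed the adjusted threshold of edgeR in both housings. Atf3 and Sprr1a are also on the injury list, and both are known to be driven by other factors as well. Il4ra and Bcl3 rose in both housings, and Pim1, Gfap and Serpina3n in SH alone by this threshold. The difference between housings was not called for any gene of the list. Without EE + SNA replicate 1 or without EE + SNA replicate 3 the number called in EE was 3 in place of 6.

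**Figure D4:**
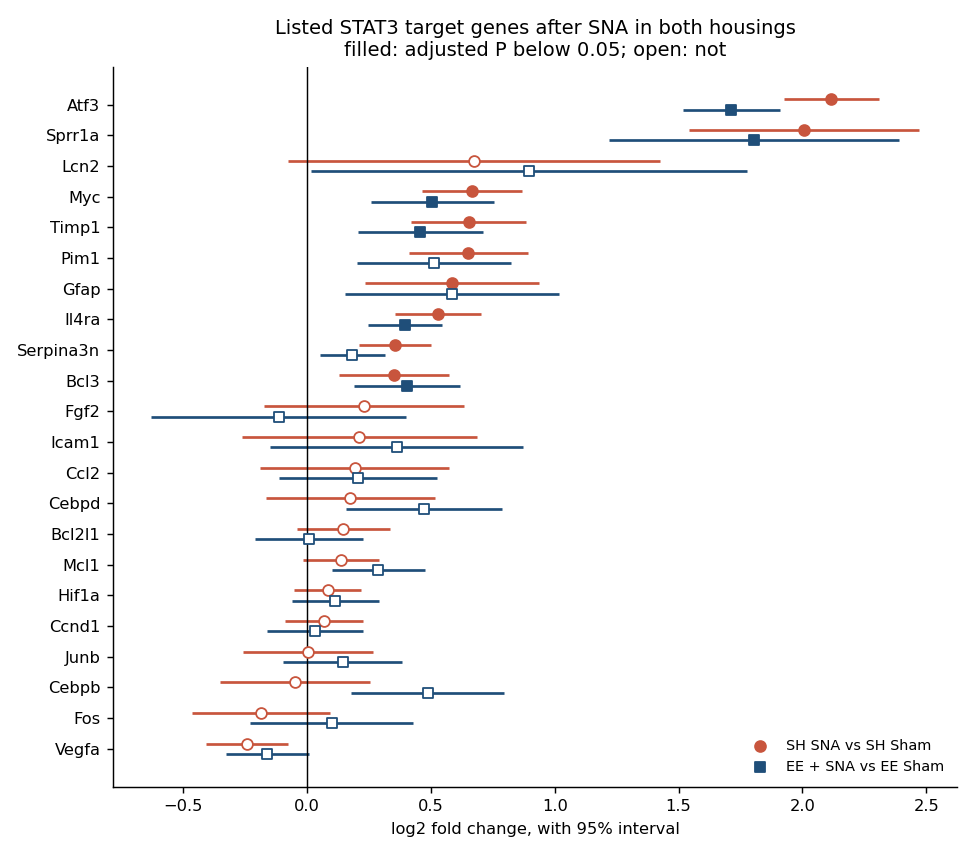
Log2 fold change with 95% intervals of the 22 listed STAT3 target genes after SNA in SH and in EE, ordered by the value in SH; filled symbols passed the adjusted threshold. Atf3 and Sprr1a stand apart from the rest of the list, and Vegfa lies at the low end at −0.24 in SH.

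Whole ganglia hold neurons, glia and blood-borne cells, and a difference in the number of cells cannot be told apart from a difference in RNA per cell. The summed CPM of 9 macrophage markers ranged from 74.0 to 80.7 in SH Sham, 87.1 to 121 in SH SNA, 69.0 to 82.1 in EE Sham and 89.4 to 125 in EE + SNA, so that the SNA groups lay above the sham groups as Il6 and Socs3 did. Of these 9 genes, Itgam and Mrc1 rose after SH SNA and 0 passed the adjusted threshold after EE + SNA. The 8 neutrophil markers summed to 68.9 to 184 CPM in SH Sham, 116 to 307 in SH SNA, 93.7 to 221 in EE Sham and 150 to 725.7 in EE + SNA, which overlapped. Lymphocyte markers summed to at most 10.7 CPM in every sample. The SH SNA sample with the highest Il6ra and Socs3, replicate 3, also had the highest neutrophil and red blood cell sums of its group. In EE + SNA, replicate 3 had the highest sums of its group as well, 725.7 CPM for neutrophils and 595.2 CPM for red blood cells. That sample had the highest Il6ra of its group (8.86 CPM) but the lowest Socs3 (32.0 CPM) and Il6 (3.38 CPM). Of 5 listed red blood cell markers, 3 were found and tested, and Hba-a1 and the haem synthesis gene Alas2 rose after SH SNA. Their sums were 113.9 to 184 CPM in SH Sham and 189.8 to 515.7 CPM in SH SNA, which did not overlap, and 110.8 to 307 CPM in EE Sham and 175 to 595 CPM in EE + SNA, which did. The part of these cells in the changes of Il6, Il6ra and Socs3 was not tested. Without SH SNA replicate 3 the log2 fold change in SH was 0.37 for Socs3 and 0.48 for Il6ra, neither called (edgeR adjusted P = 0.0681 and 0.23). Without EE + SNA replicate 3, the sample with the neutrophil sum of 725.7 CPM, the log2 fold change in EE was 1.63 for Il6 and 0.52 for Socs3, each with an adjusted P below the threshold (edgeR, 0.00264 and 0.00564).

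**Figure D5:**
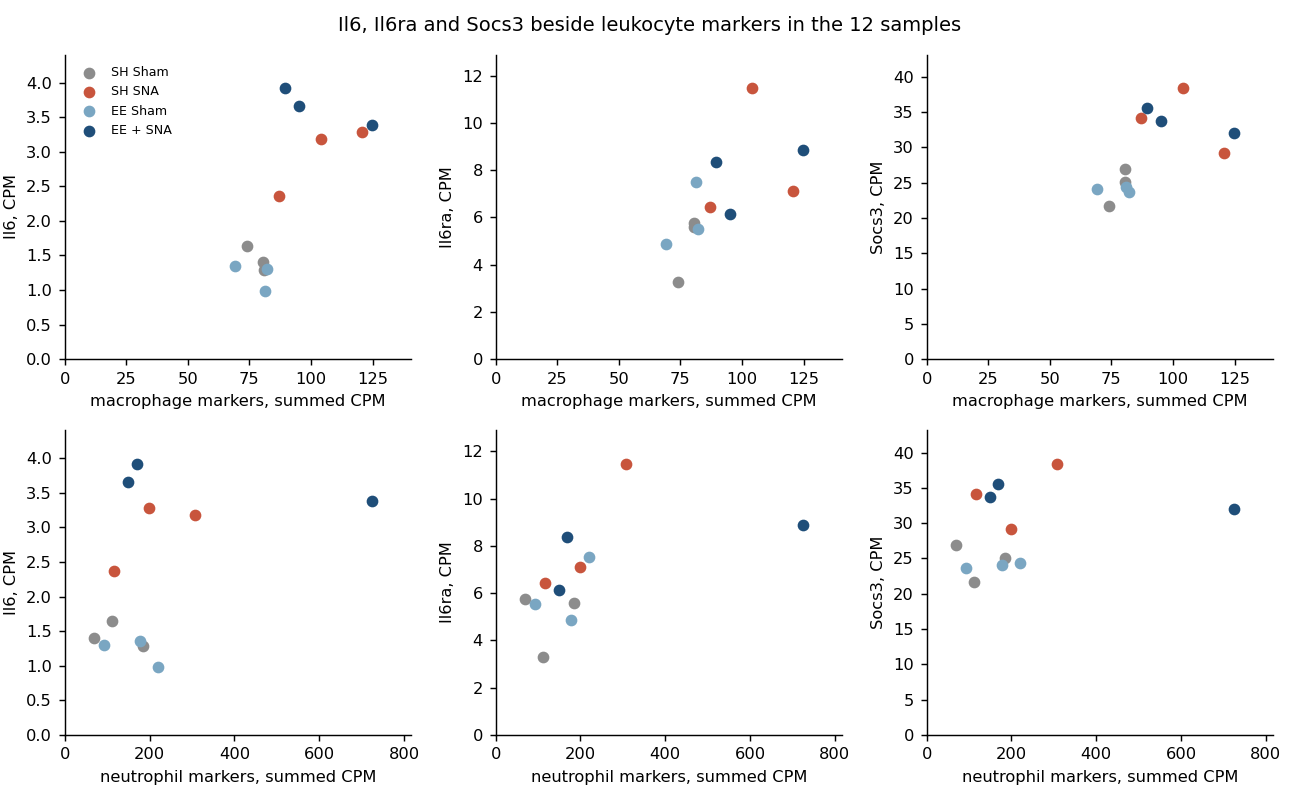
CPM of Il6, Il6ra and Socs3 against the summed CPM of 9 macrophage markers (top) and 8 neutrophil markers (bottom), one point per sample, coloured by group; all axes start at 0. The SNA samples lie to the right of the sham samples for macrophage markers, and EE + SNA replicate 3 stands apart at 725.7 CPM for neutrophil markers.

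Of 9 sensory neuron markers, Rbfox3, Nefh and Isl1 fell after SH SNA and Isl1 after EE + SNA, while Tubb3 had log2 fold changes of 0.032 and 0.056. The sums of the 9 were 8165 to 8953 CPM in SH Sham, 7345 to 8010 CPM in SH SNA, 7891 to 8291 CPM in EE Sham and 7494 to 7769 CPM in EE + SNA. Of 6 markers of satellite glia, Glul and Cdh19 rose after SH SNA and Glul after EE + SNA, and their sums did not overlap in either housing (1365 to 1531 CPM against 1599 to 1838 CPM in SH, 1364 to 1505 CPM against 1655 to 1798 CPM in EE). Fibroblast marker sums overlapped in SH and did not in EE (606.8 to 705 CPM after sham surgery, 754.5 to 959.7 CPM after SNA), where Dcn rose. Sums of myelinating Schwann cell markers likewise overlapped in SH and did not in EE (5968 to 8465 CPM and 8754 to 11540 CPM), with 0 of 6 called by edgeR and 4 higher at the unadjusted threshold in each housing. Endothelial sums did so too (80.6 to 99.9 CPM and 102.8 to 116.9 CPM in EE). The part of these cells in the changes of the members was not tested.

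The genes whose log2 CPM followed each member most closely over the 12 samples are given as a description, because samples of one group share their condition. Closest to Il6 were Heca (Pearson r = 0.966), Wisp1 (0.959), Pvr (0.959), Acvr1, a receptor for bone morphogenetic proteins (0.955), and Phlda1 (0.951). Closest to Socs3 were Steap1 (0.962), the neutral amino acid transporter Slc1a4 (0.961), the autophagy receptor Sqstm1 (0.959), the microtubule protein gene Map6 (0.953) and the lectin gene Cd207 (0.951). Closest to Stat3 were Crmp1 (0.944), Arap1 (0.937), the integrin gene Itga3 (0.936), the phosphate transporter Slc20a1 (0.932) and Etv6 (0.930). All 15 had higher group means after SNA than after sham surgery in both housings, as did the 3 members they follow.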

How the data were processed

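Paired-end mRNA libraries of whole DRG were aligned by the authors with TopHat2 2.0.12 and Bowtie2 2.2.3 to mm10, and reads were counted per gene name with HTSeq (0.6.0 per the labels). The deposited table holds raw counts, and the deposited FPKM were computed by the authors from the same reads, scaled by gene length and library total. The strand setting of the counting is not given in the sources used here. Of HTSeq's totals, 46.74% to 47.57% of reads fell on no gene, 8.487% to 9.279% were not unique and 0.3142% to 0.3699% were ambiguous, and these lines were left out. Total counts on genes ranged from 11343579 to 22871460 per sample, which limits the precision for genes with few reads.

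The counts were analysed in edgeR 4.0.16 (R 4.3.3), with TMM scaling and the filterByExpr rule (10 counts, total of 15), which left 16238 genes. The 6 samples of a comparison, or all 12 for the interaction, entered a two-sided quasi-likelihood F test, and P-values were adjusted by Benjamini-Hochberg over all genes tested. The fits were tested on simulated data. Fitted log2 fold changes use edgeR's default prior count and so slightly understate changes of genes with few reads. P-values measure the spread between 3 pools a group. No replicates were alike within sampling noise (a chi-square test of replicate pairs gave 3.858 to 8.507 per degree of freedom).

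The members and all lists were chosen with earlier results of these data known. Named from each list were the 4 genes with the largest change among those called, and all where 5 or fewer were called; other genes named were chosen after their values were seen. Genes were placed with GENCODE on GRCm38, and promoters are those of RefSeq. Alternatives were the likelihood ratio test, DESeq2 1.42.0, library size scaling, other filters, all 12 samples in one fit, a replicate block, limma 3.58.1 on log2 FPKM plus 1 or 0.1, and each sample left out in turn.

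Only between EE Sham and SH Sham was r above 0.1 in every same-numbered pair (0.1115 to 0.3313). There the numbers were taken to pair the samples on these correlations alone. Differently numbered samples there correlated at −0.3325 to 0.1938. EE Sham replicate 2 with SH Sham replicate 3 (0.1938) exceeded the same-numbered values of replicates 2 (0.137) and 3 (0.1115). Between EE + SNA and SH SNA the same-numbered values were lower (0.05731 to 0.1256), but all exceeded the highest differently numbered one (0.04033). The pairing is thus an assumption, and its limit to EE Sham and SH Sham rests on the value of 0.1.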

Additional observations from a re-analysis of the deposited data

Results flagged for a closer look

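The change of Osmr after SNA differed between housings by −0.321 on the log2 scale (EE minus SH, 95% interval −0.55 to −0.095), the sole member past the unadjusted threshold in the interaction test (edgeR unadjusted P = 0.00831). The adjusted value over 16238 genes was 1.0, and at the unadjusted threshold 2.61% of all genes were called. Osmr stood at 54.5 to 57.0 CPM in SH Sham and 60.3 to 68.1 CPM in SH SNA, and at 58.4 to 63.5 CPM in EE Sham and 49.8 to 62.1 CPM in EE + SNA. SNA samples were higher in 3 of 3 against all sham samples in SH. The difference kept its sign under all 20 alternatives, from −0.399 without EE + SNA replicate 1 to −0.248 without EE + SNA replicate 3, the sample with the highest neutrophil marker sum. The cause was not tested.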

How the results depend on the processing

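Of the 95 recomputed counts of members called, 87 stayed within 1.5 times the main count, and no called change reversed its sign under any alternative. The 95 include the comparisons in which 0 members were called throughout. Most of the counts that moved were those of SH SNA against SH Sham. In SH SNA against SH Sham, 2 members were called, and 4 with DESeq2 or without the filter on low counts (Il6ra and Il6st beside Il6 and Socs3), and 1 on log2(FPKM + 1), where Socs3 had an adjusted P of 0.0503. Leaving out 1 sample gave 1 to 3. With the replicate block, 5 members were called (Stat3, Il6ra and Il6st in addition). Replicate numbers there are not known to pair the samples, as same-numbered samples correlated at −0.235 to 0.2361. The block changed the number of members called in no other comparison. In EE + SNA against EE Sham, DESeq2 called 1 member in place of 2: its independent filtering gave Il6 no adjusted P, while its log2 fold change was 1.59. Leaving out 1 sample gave 2 throughout. In EE + SNA against SH Sham the counts were 2 to 3. In the other comparisons 0 members were called under every alternative run. Over 15 alternatives in SH the adjusted P ranged from 0.000152 to 0.23 for Il6ra, from 0.0319 to 0.227 for Il6st and from 0.0268 to 0.233 for Stat3, and in EE from 2.26e-07 to 0.0135 for Il6 and from 2.05e-05 to 0.0363 for Socs3. The few reads of Lif, Clcf1 and Cntf limit what can be said of them.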
